A study of Mus musculus with 4 samples.

Results

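Complement is a cascade of plasma and tissue proteins that tags surfaces, calls in phagocytes and can lyse cells. C1q starts the classical pathway, C4 and C3 are cleaved into tags that are deposited on the target, and the small fragments C3a and C5a are read by G protein-coupled receptors on phagocytes. Cells that face blood carry regulators that stop the cascade on their own surface, and in the brain microglia are known as the main source of C1q and as carriers of the receptors. Angpt2 codes for angiopoietin-2, a ligand of the endothelial receptor TEK that can act as its agonist or its antagonist, depending on context.

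Of 32286 genes in the deposited counts, 8 complement genes were chosen by symbol: the regulators Serping1, Cd55, Cd59a and Cd46, the components C3 and C4b, and the anaphylatoxin receptors C3ar1 and C5ar1. Each symbol named a single row in all 4 libraries. They were followed in arterial, capillary, venous and Apln-positive endothelial cells (ECs), in mural cells and in microglia, in Angpt2-KO against Angpt2-WT mice.

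Microvascular fragments were taken with PECAM1-coated beads from the cerebra of 4 mice of 3 months and sequenced with 10x Genomics 3′ chemistry, with 1 library per mouse. The Angpt2-WT mice (Angpt2+/+, WT1 and WT2) were littermates of the Angpt2-KO mice (Angpt2-/-, KO1 and KO2), on a C57BL6/J background. Each genotype had a female (WT1, KO1) and a male (WT2, KO2). The KO allele came from a floxed allele recombined with Pgk-Cre, so it is lost in every cell from early development and no result here can be tied to the loss of Angpt2 in 1 cell type.

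After removal of cells with 500 genes or fewer or 10% mitochondrial UMIs or more, 17999 of 19809 barcodes were kept, with 31753395 to 42903731 unique molecular identifiers (UMIs) per mouse. Any pair of libraries shared at most 13 barcodes. Angpt2 itself stood at 10.3 and 8.06 CPM (the UMIs of a gene divided by all UMIs of the summed cells of a group, on the usual counts-per-million scale) in ECs of WT1 and WT2 and at 51.4 and 36.7 in KO1 and KO2, and since the 3′ reads need not cover the deleted part, this checks no label. Clusters were named "-like" from listed markers, and 2290 of 14002 ECs stayed in an unnamed cluster because their highest zone score, for capillary, was below 0. Choroid plexus markers (Ttr and 4 others) summed to 682 and 592 CPM in ECs of WT1 and WT2 and to 64.5 and 267 in KO1 and KO2.

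The groups differed in make-up between the genotypes in ways that touch several results. Apln-positive ECs, the cells with at least 1 UMI of the tip cell ligand Apln, were 1.06% and 1.30% of ECs in WT1 and WT2 and 15.1% and 6.23% in KO1 and KO2. Apln was also found in 51.9% and 29.3% of pericyte-like cells of KO1 and KO2, against 6.41% and 2.68% in WT1 and WT2, and in 4.14% and 2.21% of microglia of KO1 and KO2, against 0.481% and 0.621%. With each cell thinned to 2000 UMIs the shares in KO1 and KO2 were 6.4% and 3.55% of ECs, 38.2% and 29.8% of pericyte-like cells and 1.67% and 1.40% of microglia, and Apln from other cells in the gated ECs was not tested. In KO1 and KO2, 70.2% and 57.6% of the Apln-positive ECs lay in the EC cluster richest in Apln. In WT1 and WT2 only 29.4% and 11.5% did, and venous-like clusters held most of the rest. The Apln-richest cluster held 69 and 58 cells in WT1 and WT2 and 792 and 1129 in KO1 and KO2. Its best zone score was for capillary, but it is kept apart from the capillary-like group. In the mural sums, smooth muscle-like cells gave 78.5% and 65.6% of the UMIs in WT1 and WT2 and 13.6% and 40.2% in KO1 and KO2. The smaller of the 2 venous-like clusters, led by Adgrg6, Ch25h and Ackr1 and called the large-vein cluster here, held 4.24% and 6.88% of the Apln-negative ECs in WT1 and WT2 and 2.13% and 3.67% in KO1 and KO2.

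The members differed in where they were highest. Of the 6 groups, Serping1 was highest in mural cells, Cd59a in arterial-like ECs, Cd46 in capillary-like ECs, C4b in venous-like ECs, Cd55 in Apln-positive ECs, and C3, C3ar1 and C5ar1 in microglia. For Cd55 and C4b every group overlapped with the next in the order of levels, and for Cd59a the 4 EC groups did. Leaving out any of the 4 mice did not change which of the 6 groups had the highest mean for any member.

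**Figure D1:**
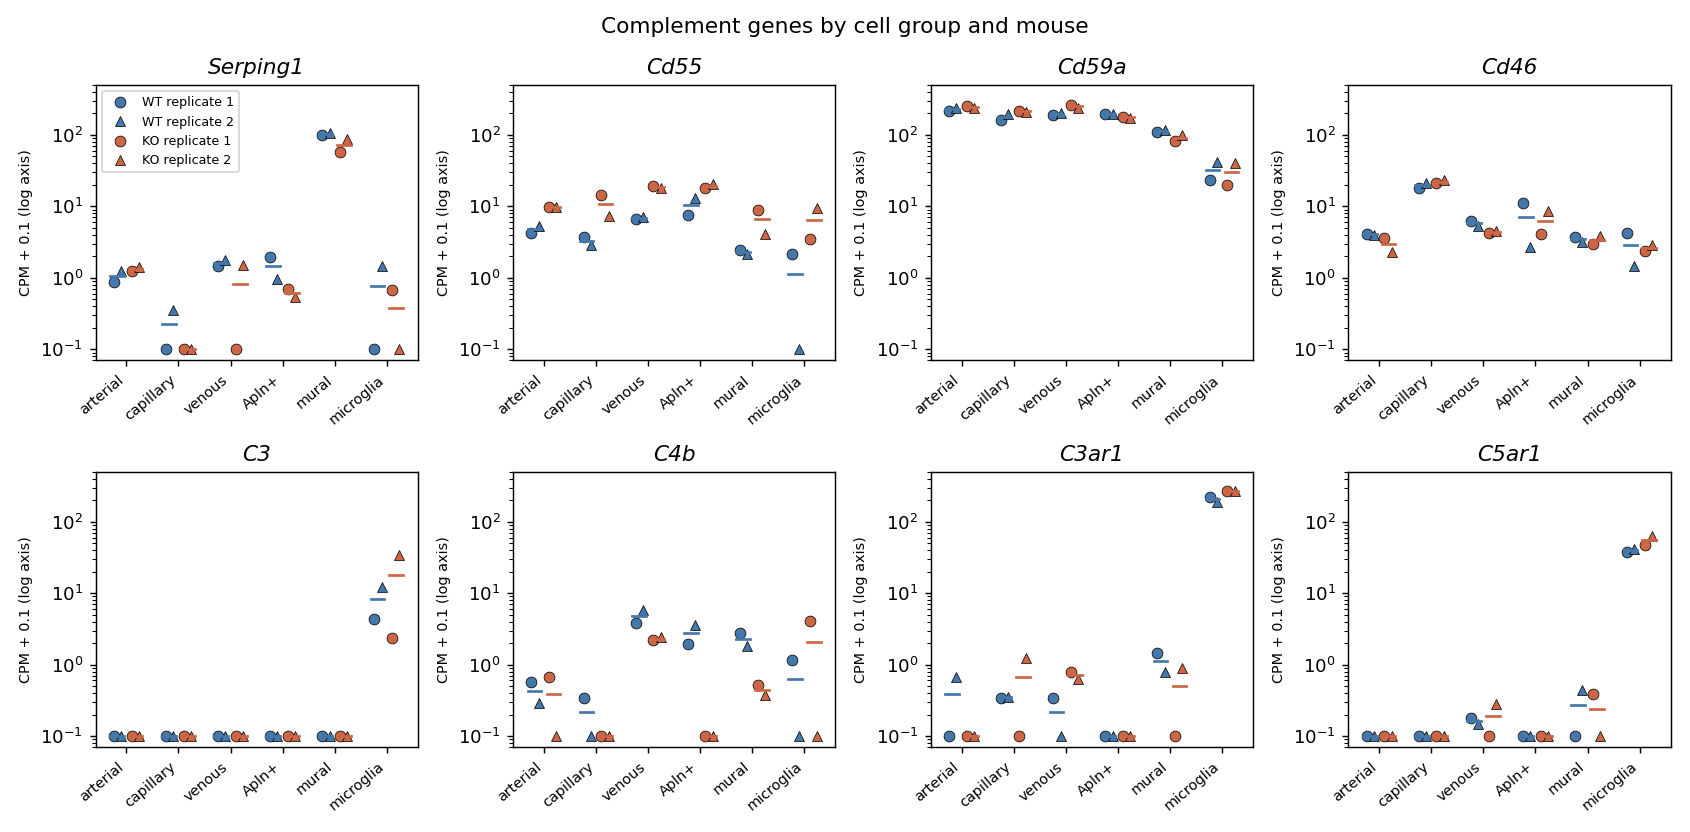
Level of each of the 8 complement genes in the 6 cell groups, as CPM + 0.1 on a log axis, with 1 point per mouse and a line at the mean of each genotype. Serping1 is highest in mural cells (57.8 to 105 CPM), C3ar1 and C5ar1 are highest in microglia, and Cd59a is at 160 CPM or more in every EC group, while Cd55 of both KO mice lies above both WT mice in each EC group.

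Cd55 codes for decay-accelerating factor, a lipid-anchored protein that breaks up C3 convertases, and Cd59a for a lipid-anchored protein that stops assembly of the membrane attack complex. Cd55 (ENSMUSG00000026399) lies on the minus strand at chr1:130439027-130462744 of GRCm38, with the antisense gene Gm16083 overlapping it, and Cd59a (ENSMUSG00000032679) on the plus strand at chr2:104095801-104115354. Both have a close copy, Cd55b and Cd59b, and reads may be split between copies. The 250 bases before the start of each gene are shown because Cd55 rose in Angpt2-KO ECs and Cd59a did not pass the test. They are from RefSeq (GRCm38.p6), 5′ to 3′ on the strand of the gene, at chr1:130462745-130462994 for Cd55 and chr2:104095551-104095800 for Cd59a. Capitals mark matches on either strand to the GC box GGGCGG (read as CCGCCC on the other strand) or to GAGGAA, a core bound by PU.1:
Cd55: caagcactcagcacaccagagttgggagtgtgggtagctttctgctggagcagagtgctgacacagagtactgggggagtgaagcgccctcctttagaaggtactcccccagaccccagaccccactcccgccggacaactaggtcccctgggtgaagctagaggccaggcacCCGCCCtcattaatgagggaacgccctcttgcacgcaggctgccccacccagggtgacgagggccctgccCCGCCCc
Cd59a: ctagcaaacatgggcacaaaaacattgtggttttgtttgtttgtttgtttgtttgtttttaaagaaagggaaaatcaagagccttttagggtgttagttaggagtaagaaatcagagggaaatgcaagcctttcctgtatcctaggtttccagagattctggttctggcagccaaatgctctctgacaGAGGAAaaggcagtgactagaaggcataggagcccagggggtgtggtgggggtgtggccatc
Also searched were the forkhead box GTAAACA, the AP-1 site TGACTCA, the cyclic AMP response element TGACGTCA, the E-box CACGTG and the TATA box TATAAA, none of which is in these windows. The Cd55 window held the GC box at 2 places and 64% G or C, the Cd59a window held GAGGAA at 1 place and 44.8% G or C. Of 32851 such windows, 32.7% hold the GC box and 23.3% hold GAGGAA.

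Cd55 was higher in Angpt2-KO ECs. Over all ECs it stood at 5.16 and 6.08 CPM in WT1 and WT2 (136 and 206 UMIs) and at 14.5 and 11.8 CPM in KO1 and KO2 (294 and 253 UMIs). Both KO mice lay above both WT mice. The rise was 2.31-fold (log2 fold change 1.21, SE 0.16, edgeR quasi-likelihood adjusted p = 0.0039, n = 2 mice per genotype). Of the 8 members, 5 passed the filter on low counts in this comparison (Serping1, Cd55, Cd59a, Cd46 and C4b), and C3, C3ar1 and C5ar1 did not. Cd55 was called higher and C4b lower, where 5.38% of 13392 genes tested were called in either direction, 3.13% higher and 2.25% lower.

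By zone, Cd55 rose in venous-like and capillary-like ECs. In venous-like cells it was at 6.48 and 6.98 CPM in WT1 and WT2 and at 19.0 and 18.2 in KO1 and KO2, a log2 fold change of 1.41 (SE 0.18, edgeR adjusted p = 0.00312). After every cell was thinned to 2000 UMIs the value was 1.44 and no longer called (SE 0.39, edgeR adjusted p = 0.0801). On the full counts it was the single member called there, where 0.93% of all tested genes were called, 0.628% higher and 0.302% lower. In the larger of the venous-like clusters the WT mice were at 4.26 and 3.97 CPM and the KO mice at 13.7 and 15.3 (log2 fold change 1.80, SE 0.24, edgeR adjusted p = 0.000118). In the large-vein cluster the WT mice were at 13.5 and 12.9 CPM and the KO mice at 48.2 and 26.8, which just missed the threshold (log2 fold change 1.33, SE 0.29, edgeR adjusted p = 0.0503). The value of KO1 rests on 32 UMIs from 36 cells of that cluster, and 8 of these UMIs lay in a single cell. The mean of each genotype there was above that in every other EC group, although WT2 stood slightly higher in its Apln-positive cells (13.2 CPM).

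In capillary-like ECs Cd55 was at 3.60 and 2.83 CPM in WT1 and WT2 and at 14.1 and 7.30 in KO1 and KO2, from only 11 to 34 UMIs per mouse. The log2 fold change of 1.67 (SE 0.39) had an edgeR adjusted p of 0.0358, in a comparison where 1.68% of genes were called (1.15% higher and 0.537% lower) and no other member was. This call rests on few UMIs: without KO1 the log2 fold change was 1.19 with an edgeR adjusted p of 0.300, and without WT2 it was 1.42 with 0.0697. DESeq2 gave 1.72 with an adjusted p of 0.224.

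In arterial-like and Apln-positive ECs the KO mice again lay above the WT mice, and the test was not passed. Arterial-like cells had 4.21 and 5.23 CPM in WT1 and WT2 and 9.83 and 9.72 in KO1 and KO2 (log2 fold change 1.01, SE 0.35, edgeR adjusted p = 0.331). No member was called there, against 0.565% of genes tested. Apln-positive cells had 7.44 and 13.2 CPM in WT1 and WT2, from 4 and 15 UMIs, and 17.9 and 20.4 in KO1 and KO2 (log2 fold change 0.74, edgeR adjusted p = 0.279). No member was called in them either, against 6.46% of genes (3.67% higher and 2.78% lower). In the Apln-richest cluster, where 0.841% of genes were called, the genotypes overlapped (log2 fold change 0.63, SE 0.53, edgeR adjusted p = 0.724). That overlap rests on only 3 and 5 Cd55 UMIs in WT1 and WT2, against 125 and 65 in KO1 and KO2. The KO effect on Cd55 did not differ detectably between zones: arterial minus capillary was −0.65 (SE 0.51, edgeR adjusted p = 0.823) and venous minus capillary was −0.24 (SE 0.41, edgeR adjusted p = 0.945) on the log2 scale, with 0.275% and 0.194% of genes called in these interaction tests (0.106% and 0.0794% with a positive difference).

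**Figure D2:**
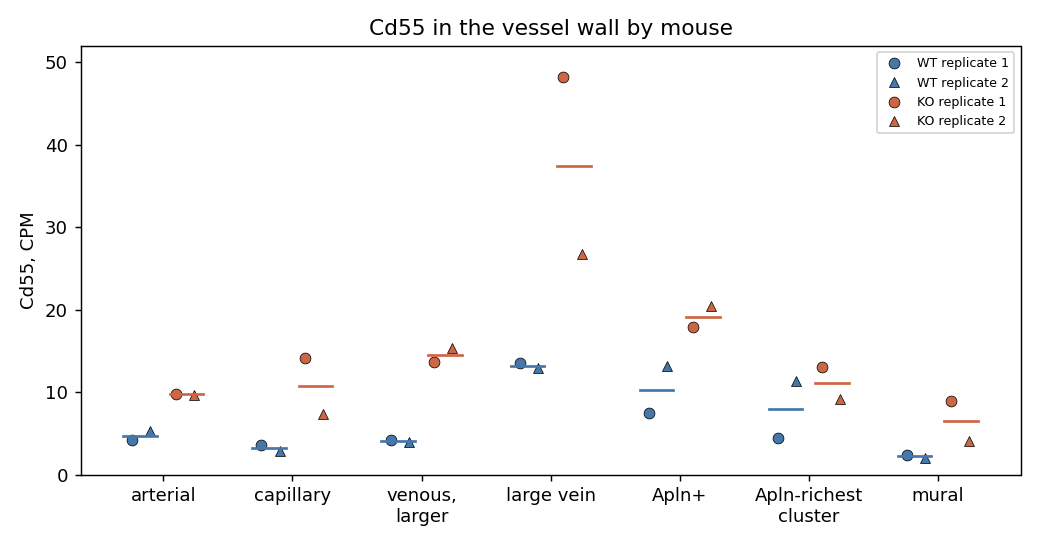
Cd55 in CPM for each mouse in EC groups and mural cells, on a linear axis with a line at the mean of each genotype. Both KO mice lie above both WT mice in all groups shown except the Apln-richest cluster. There KO2 (9.23) is below WT2 (11.4), whose value rests on 5 UMIs.

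In mural cells Cd55 was at 2.35 and 2.05 CPM in WT1 and WT2, from 7 and 6 UMIs, and at 8.94 and 4.05 in KO1 and KO2, from 63 and 15 UMIs. The KO mice lay above the WT mice without passing the test (log2 fold change 1.56, SE 0.53, edgeR adjusted p = 0.134). Without KO2 the value was 1.96. Endothelial markers in the mural sums were also higher in KO mice, at 5012 and 5807 CPM in WT1 and WT2 and 7607 and 6646 in KO1 and KO2. A refit left out mural cells with 3 or more endothelial marker UMIs, and its Cd55 value is not given here. The part of EC transcripts in mural Cd55 was not tested further. In pericyte-like cells alone the genotypes overlapped, at 6.23 and 1.99 CPM in WT1 and WT2 and 9.86 and 4.52 in KO1 and KO2. Fenestrated endothelial-like cells had 0.368 to 3.15 CPM over the 4 mice.

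B cells carried more Cd55 than any group of the vessel wall. B cell-like cells had 393 and 426 CPM in WT1 and WT2 and 369 and 435 in KO1 and KO2. ECs with 3 or more UMIs of microglia, pericyte, smooth muscle, fibroblast or astrocyte markers were left out in a further fit. The rise in all ECs was then 1.37 on the log2 scale (edgeR adjusted p = 0.00172). B cell markers were not part of that filter. They summed to 3.03 and 8.68 CPM in ECs of WT1 and WT2 and to 2.22 and 3.28 in KO1 and KO2. The part of B cell transcripts in EC Cd55 was not tested.

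Within the KO mice, Apln-positive ECs carried more Cd55 and less Cd59a than Apln-negative ECs. Cd55 was at 17.9 and 20.4 CPM in Apln-positive cells of KO1 and KO2 against 13.4 and 10.8 in Apln-negative cells (log2 difference 0.60, SE 0.16, edgeR adjusted p = 0.0251 with mouse as a term). Cd59a was at 181 and 171 CPM against 231 and 224 (log2 difference −0.38, SE 0.058, edgeR adjusted p = 0.000226). Both were called, where 10.9% of genes were (6.45% higher and 4.46% lower). Apln-positive cells were deeper, with medians of 11015.5 and 5824 UMIs against 6950 and 3793 in KO1 and KO2. The Cd55 difference turned when the whole Apln-richest cluster was set against the other ECs (−0.37, edgeR adjusted p = 0.051), and it was not called after every cell was thinned to 2000 UMIs (0.80, edgeR adjusted p = 0.350), whereas Cd59a stayed lower in the Apln-richest cluster (−0.26, edgeR adjusted p = 1.95e-05).

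Cd59a was present along the whole vessel tree. It ranged from 218 to 251 CPM over the 4 mice in arterial-like ECs, from 187 to 264 in venous-like, from 160 to 217 in capillary-like and from 171 to 197 in Apln-positive ECs, and these ranges overlap from each group to the next. Mural cells (81.5 to 117) lay below these 4 EC groups, and microglia (19.9 to 41.9) below mural cells. The 7 endothelial markers summed to 5012 to 7607 CPM in mural cells and 917 to 2353 in microglia, against 12014 to 12774 in ECs. The part of EC transcripts in the mural and microglial Cd59a levels was not tested. Fenestrated endothelial-like cells, the separate cluster, had only 41.3 to 54.0 CPM. Between genotypes it did not pass the test in ECs (WT1 191, WT2 213, KO1 218 and KO2 219 CPM, log2 fold change 0.10, SE 0.11, edgeR adjusted p = 0.703). In capillary-like ECs both KO mice (217 and 208) lay above both WT mice (160 and 195), with a log2 fold change of 0.28 and an edgeR adjusted p of 0.179. With ECs clustered at resolution 0.6 it was 0.34 with an edgeR adjusted p of 0.00552, where 3182 genes were called in place of 182. The capillary-like group at that resolution also took in a cluster led by Ccn2, Meox1 and Cpe. Before Apln-positive cells were left out, that cluster held 72 and 64 cells in WT1 and WT2 and 814 and 1166 in KO1 and KO2. Venous-like ECs also separated, with WT1 and WT2 at 187 and 205 and KO1 and KO2 at 264 and 238 (log2 fold change 0.31, SE 0.13, edgeR adjusted p = 0.445). Apln-positive ECs separated the other way, with 197 and 195 in WT1 and WT2 and 181 and 171 in KO1 and KO2 (log2 fold change −0.17, edgeR adjusted p = 0.616). In mural cells both KO mice (81.5 and 101) lay below both WT mice (110 and 117), with a log2 fold change of −0.37 (SE 0.18, edgeR adjusted p = 0.281). It was −0.56 in pericyte-like cells alone (edgeR adjusted p = 0.063) and 0.11 in smooth muscle-like cells alone (edgeR adjusted p = 0.959). In mural cells without those holding markers of another type, here 3 or more endothelial marker UMIs, it was 0.02 (edgeR adjusted p = 0.997). The mural effect minus the EC effect was −0.53 (SE 0.14), just short of the threshold (edgeR adjusted p = 0.0504), where 4.38% of genes were called (2.36% positive and 2.02% negative), and no member was. No member was called either when the microglial KO effect was set against that of ECs, where 0.611% of genes were.

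Cd46 codes for a membrane cofactor for the cleavage of C3b and C4b, which in the mouse is known mainly from the testis. Cd46 (ENSMUSG00000016493) lies at chr1:195036826-195092249 on the minus strand of GRCm38, overlapped by Gm37132 on the same strand, and reads shared by both cannot be told apart. It was at 18.3 and 20.8 CPM in capillary-like ECs of WT1 and WT2 and at 20.8 and 23.3 in KO1 and KO2, above every other group in each mouse. The cluster that makes up this group was led by Gm26917, Lars2, Fam193b and Ddx17 and had a median of 3186.5 UMIs per cell. The other 5 groups lay between 1.35 and 11.2 CPM. In the large-vein cluster WT1 and WT2 were at 4.29 and 3.72 CPM, from 38 UMIs in all, KO1 at 0 (which allows up to 4.52 CPM) and KO2 at 0.724, from 1 UMI, and Cd46 did not pass the filter on low counts there. At resolution 0.6, where other cells make up the capillary-like group, the genotype difference of Cd46 turned from 0.20 (SE 0.18, edgeR adjusted p = 0.792) to −0.87 (edgeR adjusted p = 0.00863). At that setting 3182 genes were called in capillary-like ECs. Cd46 was not called in the other cell groups at the settings reported here, with a log2 fold change of 0.03 (SE 0.19, edgeR adjusted p = 0.956) in ECs.

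Serping1 codes for C1 inhibitor, a secreted protein that inactivates C1r and C1s and also kallikrein of the kinin system. Serping1 (ENSMUSG00000023224) lies at chr2:84765387-84775444 on the minus strand of GRCm38. In mural cells it was at 100 and 105 CPM in WT1 and WT2 and at 57.8 and 86.4 in KO1 and KO2, and no mouse exceeded 1.86 CPM in any of the 4 EC groups. The mural sums of the KO mice lay below those of the WT mice, without passing the test (log2 fold change −0.57, SE 0.21, edgeR adjusted p = 0.16). No member was called in mural cells, where 4.77% of genes were. Smooth muscle-like cells alone had 109 and 126 CPM in WT1 and WT2 and 106 and 101 in KO1 and KO2. Pericyte-like cells alone had 67.0 and 65.8 in WT1 and WT2 and 50.1 and 76.3 in KO1 and KO2. The genotypes overlapped in pericyte-like cells (log2 fold change −0.10, SE 0.23, edgeR adjusted p = 0.847), and in smooth muscle-like cells, where both KO mice lay just below both WT mice, the log2 fold change was −0.27 (SE 0.18, edgeR adjusted p = 0.902). The lower mural sums went along with the smaller smooth muscle share of the KO mice given above, whose part in the mural value was not tested beyond these separate fits. Without KO2 the mural fall was −0.88, with KO1 and its 13.6% smooth muscle share as the only KO mouse.

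Serping1 was also found outside mural cells. The large-vein cluster had 4.95 and 5.06 CPM in WT1 and WT2, 0 in KO1 (which allows up to 4.52 CPM at the limit of 3 UMIs) and 5.79 in KO2, and fenestrated endothelial-like cells, a separate cluster, had 24.6 and 10.7 in WT1 and WT2 and 10.5 and 42.2 in KO1 and KO2. In neither did the genotypes separate.

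C4b codes for complement C4, the precursor of the classical pathway tag. C4b (ENSMUSG00000073418) lies at chr17:34728380-34743882 on the minus strand of GRCm38, near its close copy C4a, and reads of the copies may be split between them. Over all ECs it stood at 1.97 and 3.54 CPM in WT1 and WT2 (52 and 120 UMIs) and at 0.494 and 0.609 in KO1 and KO2 (10 and 13 UMIs). Both KO mice lay below both WT mice, and the fall was called (log2 fold change −2.33, SE 0.40, edgeR adjusted p = 0.0117). Oligodendrocyte markers moved the same way in ECs, at 22.8 and 47.7 CPM in WT1 and WT2 and 7.50 and 8.20 in KO1 and KO2. Their part in the C4b fall was not tested. Without cells holding markers of another type the C4b difference was −3.02 (edgeR adjusted p = 0.0107), but oligodendrocyte markers were not part of that filter. In mural cells C4b was at 2.68 and 1.71 CPM in WT1 and WT2 and at 0.426 and 0.270 in KO1 and KO2, from 8, 5, 3 and 1 UMIs, and did not pass the filter on low counts.

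Most of these UMIs came from the large-vein cluster: 32 of 51 in Apln-negative ECs of WT1, 103 of 116 in WT2, 8 of 10 in KO1 and 12 of 13 in KO2. Within that cluster C4b was at 10.6 and 15.3 CPM in WT1 and WT2 and at 12 and 8.68 in KO1 and KO2. The genotypes overlapped there (log2 fold change −0.51, SE 0.40, edgeR adjusted p = 0.738), but the overlap rested on 1 cell, since 6 of the 8 UMIs of KO1 lay in a single cell. With the cell of most C4b UMIs left out in each mouse, the values were 9.68 and 13.5 CPM in WT1 and WT2 and 3.37 and 5.17 in KO1 and KO2, from 29, 90, 2 and 7 UMIs, and did not overlap. On the full sums none of the members tested in the cluster was called, against 0.325% of genes. The cluster gave 11.7% and 20.5% of the Apln-negative EC UMIs in WT1 and WT2 and 4.36% and 7.24% in KO1 and KO2. In all venous-like ECs C4b was at 3.71 and 5.68 CPM in WT1 and WT2 and at 2.09 and 2.31 in KO1 and KO2, and the fall of 1.15 on the log2 scale was not called (SE 0.37, edgeR adjusted p = 0.245). Outside the large-vein cluster it was at 0.833 and 0.50 CPM in WT1 and WT2 (19 and 13 UMIs) and at 0.137 and 0.0564 in KO1 and KO2 (2 and 1 UMIs). The call in all ECs was lost without WT2 (−1.87, edgeR adjusted p = 0.117) and without the Apln-richest cluster (−1.64, edgeR adjusted p = 0.117), in which no C4b UMI was found in any mouse.

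**Figure D3:**
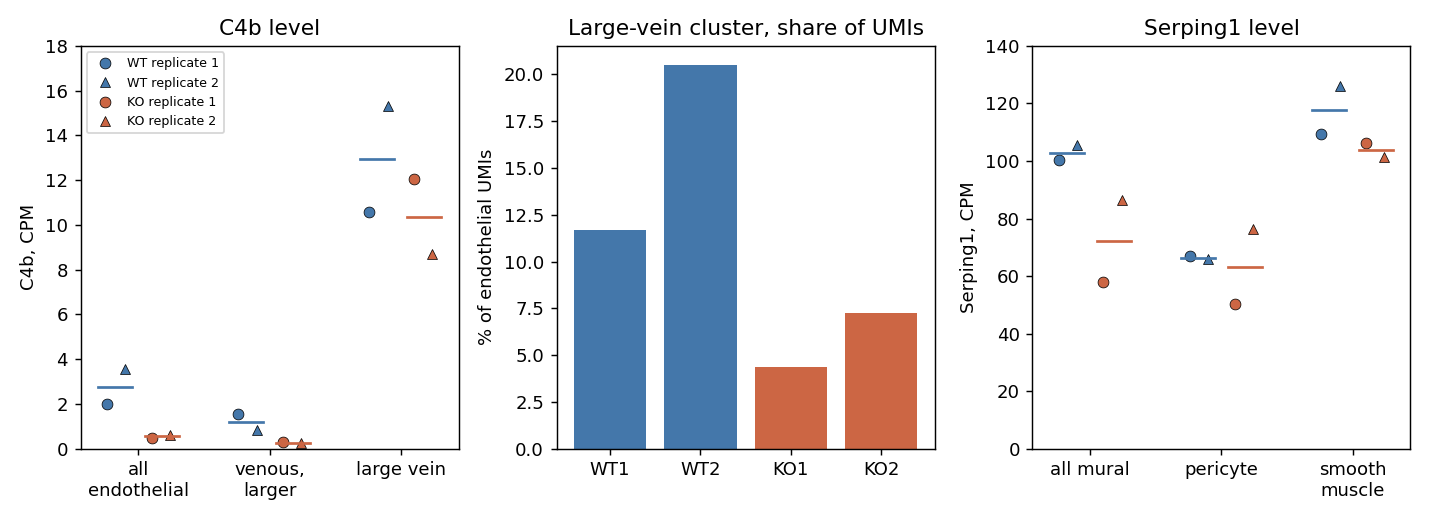
C4b in CPM by mouse in all ECs and each venous-like cluster (left), the percent of Apln-negative EC UMIs from the large-vein cluster as 1 bar per mouse (middle), and Serping1 in CPM by mouse in mural cells and their 2 parts (right), with lines at genotype means. In the large-vein cluster C4b overlaps between genotypes (8.68 to 15.3 CPM), where 1 cell holds 6 of the 8 UMIs of KO1, and the UMI share of the cluster is 11.7% and 20.5% in WT against 4.36% and 7.24% in KO mice, and Serping1 overlaps between genotypes in pericyte-like cells.

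C3 codes for the central component of the cascade. C3 (ENSMUSG00000024164) lies at chr17:57203970-57228136 on the minus strand of GRCm38. In vascular cells it was barely detected at this depth: 1 UMI was found in 14002 ECs (in KO1) and none in mural cells, whose sums of 2921480 to 7046650 UMIs allow up to 1.03 CPM at the limit of 3 UMIs. Microglia-like cells held 4 and 9 UMIs in WT1 and WT2 and 4 and 36 in KO1 and KO2 (4.18, 12.2, 2.28 and 33.8 CPM). The high value of KO2 came from 6 cells, and 35 of its 36 UMIs lay in cells with 2 or more UMIs of perivascular macrophage markers (Mrc1, Cd163, Lyve1, F13a1, Cbr2, Ms4a7). The genotypes overlapped and the log2 fold change of 0.96 (SE 0.96) had an edgeR adjusted p of 0.959. Without KO1 it was 2.02 with an edgeR adjusted p of 0.0238, and without KO2 it was −1.78 with 0.997.

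C3ar1 and C5ar1 code for the receptors of C3a and C5a on phagocytes. C3ar1 (ENSMUSG00000040552) lies at chr6:122847138-122856161 and C5ar1 (ENSMUSG00000049130) at chr7:16246743-16259540, both on the minus strand of GRCm38. The 250 bases before their RefSeq starts ( GRCm38.p6, chr6:122856158-122856407 and chr7:16259339-16259588) are shown because both genes were highest in microglia. The RefSeq start of C5ar1 lies inside the gene as given above, so most of its window is within that gene, whereas the C3ar1 window overlaps its gene by only a few bases. Capitals mark TATAAA, the GC box (as CCGCCC) and the AP-1 site TGACTCA:
C3ar1: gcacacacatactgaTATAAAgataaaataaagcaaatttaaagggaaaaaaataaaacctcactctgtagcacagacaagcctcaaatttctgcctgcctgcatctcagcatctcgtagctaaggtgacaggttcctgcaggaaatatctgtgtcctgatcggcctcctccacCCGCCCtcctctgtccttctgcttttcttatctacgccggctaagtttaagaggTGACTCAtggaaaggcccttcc
C5ar1: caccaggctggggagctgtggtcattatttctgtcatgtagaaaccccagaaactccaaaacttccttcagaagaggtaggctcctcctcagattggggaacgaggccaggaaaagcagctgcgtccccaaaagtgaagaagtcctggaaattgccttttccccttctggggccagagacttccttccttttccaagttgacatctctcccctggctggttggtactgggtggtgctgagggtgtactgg
The C5ar1 window held none of the 7 searched motifs. TGACTCA is in 4.46% and TATAAA in 12.4% of all windows.

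Among the 6 groups both receptors were found mostly in microglia. C3ar1 was at 222 and 188 CPM in microglia of WT1 and WT2 and at 267 and 265 in KO1 and KO2, against at most 1.34 CPM in any mouse of any EC zone or of mural cells. C5ar1 was at 37.7 and 41.9 in WT1 and WT2 and at 47.8 and 63.8 in KO1 and KO2, against at most 0.342 in the other 5 groups. For scale, C1qa, a microglial gene, was at 5329 to 6282 CPM in microglia and 3.50 to 12.7 CPM in ECs.

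Both KO mice lay above both WT mice for C3ar1 and C5ar1, and neither passed the test. Monocyte or neutrophil markers in the microglia group summed to 214 and 388 CPM in WT1 and WT2 and to 529 and 1011 in KO1 and KO2. Of the 68 C5ar1 UMIs in microglia of KO2, 13 lay in 2 cells. The part of monocytes or neutrophils in these receptor levels was not tested. The log2 fold change was 0.31 (SE 0.16) for C3ar1 and 0.41 (SE 0.25) for C5ar1, both with an edgeR adjusted p of 0.894. Of 9100 genes tested in microglia 7 were called, which is 0.0769%, and no member was among them. At an unadjusted p under 0.05 there were 514 genes and again no member. After thinning to 2000 UMIs per cell the C3ar1 difference was 0.05 (SE 0.17).

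**Figure D4:**
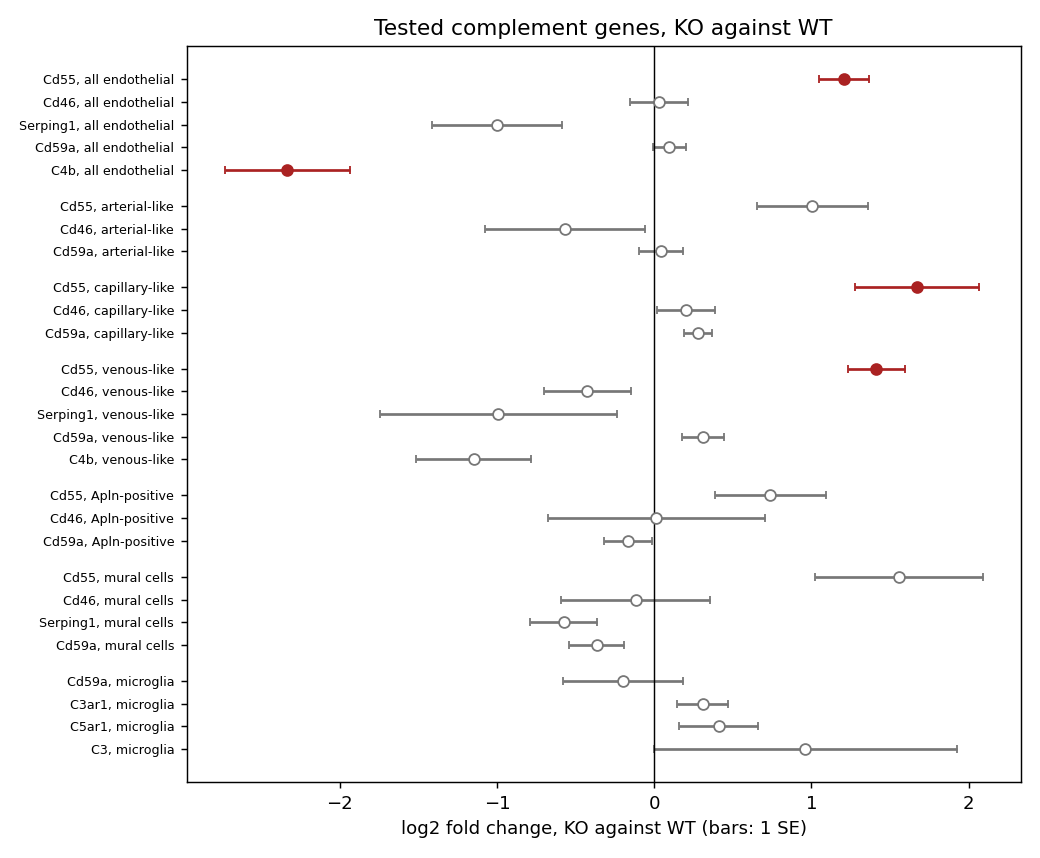
Log2 fold change in KO against WT mice with bars of 1 SE for each complement gene that passed the low-count filter, by cell group. Filled red points passed an edgeR adjusted p under 0.05: Cd55 in all, capillary-like and venous-like ECs (1.21, 1.67 and 1.41) and C4b in all ECs (−2.33).

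Genes were ranked by how closely their level over the 24 sums (4 mice in 6 groups) followed that of a member, by Pearson correlation of log2(CPM + 1), as a description. Cspg4, Sdc2 and Gucy1b1 were most like Serping1 (0.988 to 0.981), Nos3, Mindy1 and Ndrg1 most like Cd59a (0.986 to 0.982), Clec5a, Pld4 and Adora3 most like C3ar1 (0.995 to 0.994), and Tlr13, Ccl6 and Ncf4 most like C5ar1 (0.997 to 0.995). Pan2, Ubxn7 and Rc3h2 followed Cd46 (0.921 to 0.908). For Cd55 the likeness was weaker, with Il2rg, Caprin1 and Tcea1 at 0.850 to 0.826. The sums share mice and libraries, so they are not independent.

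A wider list of 52 complement genes, the 8 members included, was counted in each comparison. In ECs 22 of them were tested, 1 was called higher (Cd55) and 2 lower, C4b among them, where 5.38% of all genes were called. The 22 had a median log2 fold change of −0.03 against −0.02 over all genes. In arterial-like ECs 14 were tested and none was called, against 0.565% of all genes. In venous-like ECs 20 were tested and Cd55 alone was called, against 0.93% of all genes. In capillary-like ECs 14 were tested, of which 1 was called higher (Cd55) and 2 lower, Clu among them, against 1.68% of all genes. In Apln-positive ECs 8 were tested, of which 2 were called lower, Clu among them, and none higher, against 6.46% of all genes.

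Clu, which codes for clusterin, an inhibitor of the terminal pathway, was highest in arterial-like ECs and smooth muscle-like cells. It was at 157 and 180 CPM in arterial-like ECs of WT1 and WT2 and at 151 and 300 in KO1 and KO2 (log2 fold change 0.39, edgeR adjusted p = 0.576). In capillary-like ECs it was at 21.4 and 12.8 against 4.58 and 7.87 CPM (−1.40, SE 0.33, edgeR adjusted p = 0.0385), and in Apln-positive ECs at 16.7 and 21.1 against 7.35 and 7.09 (−1.43, SE 0.34, edgeR adjusted p = 0.0235). Choroid plexus markers were higher in ECs of the WT mice, as given above, and their part in the Clu values was not tested.

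**Figure D5:**
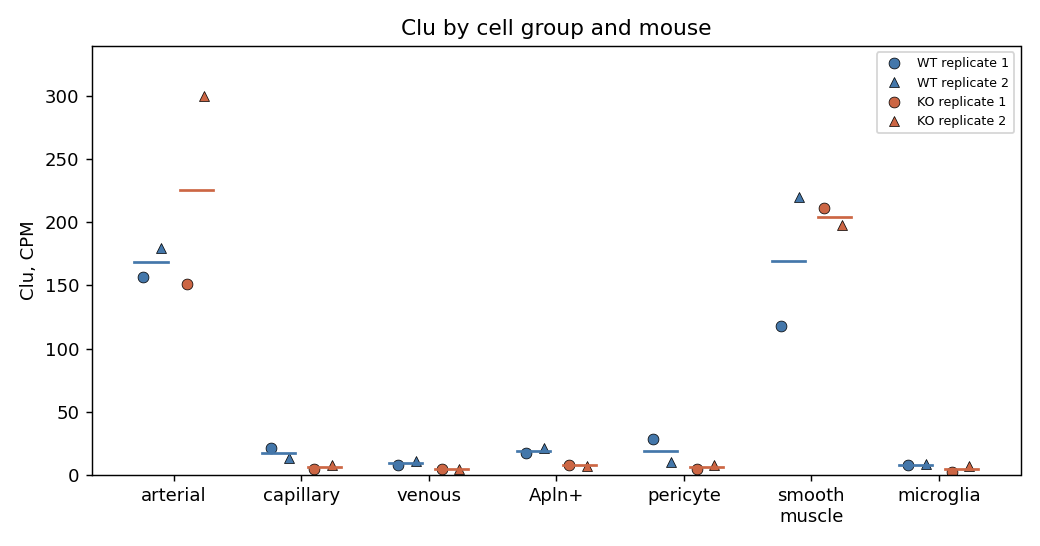
Clu in CPM for each mouse in 7 cell groups, on a linear axis with a line at the mean of each genotype. Clu is highest in the arterial and smooth muscle groups, and both KO mice (4.58 and 7.87) lie below both WT mice (21.4 and 12.8) in the capillary group.

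In mural cells 16 listed genes were tested and none was called, against 4.77% of all genes. In pericyte-like cells alone, where 12.4% of all genes were called, 15 were tested, 5 were called lower and none higher. Vtn, which codes for vitronectin and marks brain pericytes, was at 4533 and 5769 CPM in WT1 and WT2 and at 2457 and 3474 in KO1 and KO2 (log2 fold change −0.79, SE 0.18, edgeR adjusted p = 0.00689). Clu fell by 1.71 and the lectin Colec11 fell by 1.90 on the log2 scale. C2, which codes for a convertase subunit, fell by 3.87, from 8 and 8 UMIs to 2 and 3. The 7 endothelial markers summed to 7462 to 7936 CPM in pericyte-like cells of the 4 mice against 12014 to 12774 in ECs. The listed pericyte markers were also lower, at 7478 and 7809 CPM in WT1 and WT2 and 5560 and 6380 in KO1 and KO2. Choroid plexus markers were at 626 and 606 CPM in pericyte-like cells of WT1 and WT2 and 42.4 and 163 in those of KO1 and KO2, and oligodendrocyte markers at 56.1 and 168 against 2.63 and 4.06. The part of these markers in the result was not tested.

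The C1q genes, which start the classical pathway, did not pass the test in microglia. C1qa was at 6136 and 6155 CPM in WT1 and WT2 and at 6282 and 5329 in KO1 and KO2, with log2 fold changes of −0.14 for C1qa, −0.16 for C1qb and −0.06 for C1qc (edgeR adjusted p = 0.959, 0.959 and 0.978). Of 13 listed genes tested in microglia none was called, against 0.0769% of all genes. Cr1l (Crry), the broad membrane regulator of rodents, was at 144 and 146 CPM in ECs of the WT mice and 170 and 163 in those of the KO mice, with a log2 fold change of 0.18 (SE 0.09, edgeR adjusted p = 0.364).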

How the data were processed

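Whole-number UMI counts per gene and cell were deposited by the authors as 1 filtered matrix per mouse, made with Cell Ranger 6.1.2 (submitters' processing notes) on mm10. The cell filter was above 500 genes and below 10% mitochondrial UMIs. They were clustered in Seurat 5.3.0 (2000 variable genes without the listed complement genes, 50 principal components, resolution 0.2, then 0.4 for ECs), with no doublet caller. Counts were summed per mouse and cell group and tested with edgeR 4.0.16 (TMM, quasi-likelihood test, low-count filter, Benjamini-Hochberg adjusted p threshold 0.05), in R 4.3.3, with DESeq2 1.42.0 as an alternative. Scripts were tested on simulated data. Gate and interaction tests carried the mouse as a term. Arterial-like, capillary-like and venous-like groups exclude Apln-positive ECs. The capillary-like group also leaves out the whole Apln-richest cluster. The members and lists were chosen with earlier results of these data known. Named were the 8 members, listed genes that were called or reached 100 CPM in a group, and the 3 genes most like each member. Intervals and limits of 3 UMIs cover counting error only. Settings added after seeing the data were each venous-like cluster alone, the cluster scored below 0, ECs without the Apln-richest cluster, microglia without C3 cells, and crossed pairing. Counts over the gene list include genes that are not reported here.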

Additional observations from a re-analysis of the deposited data

Results flagged for a closer look

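The KO effect on Clu differed between arterial-like and capillary-like ECs, by 1.86 on the log2 scale (arterial minus capillary, SE 0.29, edgeR adjusted p = 9.5e-05 with mouse as a term), with lower capillary-like values in both KO mice than in both WT mice. This difference was tested directly and picked out for that reason. With genotype in place of the mouse no gene, Clu included, was called in this comparison. In arterial-like ECs the KO mice differed from each other in Clu, as given above. Choroid plexus markers were higher in ECs of the WT mice, and their part in it was not tested.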

How the results depend on the processing

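With 2 mice per genotype and few UMIs for Cd55, C4b and C3, the number of members called moved with the processing, and the cause was not tested. In all ECs it was 2, and 1 after thinning to 2000 UMIs or without the Apln-richest cluster, with a range of 1 to 2 when each mouse was left out (1 without WT2). Cd55 in all ECs stayed called under every alternative run. In capillary-like ECs it was 1, and 0 with DESeq2, without cells holding markers of another type or after thinning, 3 at resolution 0.6, and 0 to 1 with a mouse left out (0 without KO1 or WT2). In venous-like ECs it was 1, and 2 with no filter on low counts or without cells holding markers of another type, 0 after thinning or in the large-vein cluster alone. In mural cells it was 0, and 0 to 2 with a mouse left out (2 without KO2). In microglia it was 0, and 0 to 1 with a mouse left out (C3, without KO1). For Apln-positive against Apln-negative ECs it was 2, 1 with DESeq2 or after thinning and 0 with no mouse term. For mural cells against ECs it was 0, and 1 with no filter. Among values called at either setting, signs turned for Cd46 in capillary-like ECs at resolution 0.6 (−0.87), for Cd55 in the Apln-richest cluster (−0.37), and for Vtn between Apln-positive and Apln-negative ECs, which was 0.93 and became −1.04 without cells holding markers of another type, −0.43 after thinning and −0.15 in the Apln-richest cluster. Uncalled members also turned, among them C3 in microglia without KO2 (−1.78) and Cd59a in mural cells without cells holding markers of another type (0.02).

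Over all genes, calls ranged from 144 to 1543 in ECs (720 as reported), 23 to 268 in arterial-like (61), 73 to 3182 in capillary-like (182), 20 to 839 in venous-like (111) and 90 to 1420 in Apln-positive ECs (624), 0 to 2266 in mural cells (550, with 0 without WT1) and 0 to 149 in microglia (7). The 3182 calls in capillary-like ECs came at resolution 0.6. For the Apln gate calls ranged from 184 to 3549 (1313). With no filter the differences of the KO effect gave 1159 for mural cells (609) and 172 for microglia (86). For arterial and venous they gave 71 (31) and 45 (22). With genotype in place of the mouse these differences gave 1, 11, 0 and 0, in that order.

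The replicate number coincides with sex, and may coincide with experiment, which the labels do not give. It did not pair the mice (correlation of deviations in ECs 0.0894, and −0.156 without sex-linked genes). With the replicate number as a block 860 genes were called in ECs, Cd55 was at 1.20, and the number of members called stayed at 2 in ECs, 1 in capillary-like and venous-like ECs and 0 in the other groups. Crossed pairing called 1386 genes in ECs, 459 in venous-like ECs and 1852 in mural cells, with 2 members in mural cells. Apln-positive ECs were not refitted without cells holding markers of another type or at 2 Apln UMIs, because a mouse kept only 19 and 5 cells.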
